A study of Mus musculus with 8 samples.

Results

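Keratin-associated proteins are small proteins that fill the space between the keratin filaments of the hair shaft and cross-link them, largely through disulfide bonds between cysteines. Their genes are short, lie side by side in clusters and are switched on in the precortex, cortex and cuticle of the growing hair, after the hair keratins. They are usually sorted by the make-up of the protein, as high glycine-tyrosine, high sulfur and ultra-high sulfur members. Every row of the RPKM table with a name of the form *Krtap* followed by a number was taken as a member, which gave 52 of 23358 rows. The first number of the name was used as the subfamily, which gave 23 subfamilies, of which 12 had a single member in the table and the largest had 8.

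The 8 RNA-seq libraries came from the cervical loop of incisors of 4-week-old mice (C57BL/6), with 2 libraries in each of 4 groups. *Med1* cKO mice carried 2 floxed *Med1* alleles and Cre recombinase driven by the *Krt14* promoter, which is active in stratified and dental epithelium and not in the other cell types of the dissected tissue, and Ctrl mice were Cre-negative littermates. Each genotype was sampled in the head of the cervical loop (CLH), which holds dental epithelial stem cells, and in the tail (CLT), which holds their progenies. The study used 2 litters and pooled the tissues of several mice, so that a library is not a single animal, and the labels do not say which litter a library came from. A bulk library cannot tell fewer cells of a type from less RNA per cell. The libraries had about 26590000 to 34420000 reads, of which 82.2% to 85.6% lay on genes of the table. RPKM scales the reads of a gene by its length and by the library's total, so that members of different length can be compared.

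Both libraries labelled Ctrl CLT stood apart from each other in the genes described here. The members summed to 6287 RPKM in Ctrl CLT 1 against 5.77 RPKM in Ctrl CLT 2, a ratio of 1089. Tests of the members that rest on these libraries are therefore given with and without each. The marker lists were tested only with both. *Med1* itself had an RPKM of 4.83 in Ctrl CLT 1, 8.71 in Ctrl CLT 2, 9.15 in cKO CLT 1 and 8.96 in cKO CLT 2, and 7.03 to 9.12 over the CLH libraries. The table holds 1 value for the whole gene, and most of that gene lies outside the deleted exons, so these values do not check the labels, and group names below are those of the labels. Of the 7 ameloblast markers, which define the enamel-forming cells of this tissue, the sum reached 84584 and 37392 RPKM in the Ctrl CLT libraries, 19.7 and 15.8 in the cKO CLT libraries and 12504 to 14318 in the CLH libraries. The enamel markers were thus nearly absent from the libraries labelled cKO CLT, with *Amelx*, which encodes the main enamel matrix protein, at 6.57 and 3.68 RPKM against 48799 and 18602 in Ctrl CLT.

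The promoters of the members are shown first because the members share features there that their selection did not use. RefSeq promoters (GRCm38.p6, from 250 bases before to 50 bases after the annotated start) matched 47 of the 52 members. The hexamer TATAAA, searched on both strands, occurred in 38 of these 47 (80.9%) against 14.1% of 27025 promoters of the same length. Starting between 40 and 20 bases before the start site on the gene's own strand, where a TATA box normally lies, it occurred in 28 of 47 (59.6%) against 2.23% of all promoters. The letters CTTTGA, searched on both strands, occurred in 27.7% of the members' promoters and 16.2% of all promoters, and CAATAAA, likewise searched on both strands, in 0 of 47 and 4.83% of all. The 120 bases before the start site are printed for the member with the highest level, for a high-level member of each coding class and for the 3 members called by the interaction test of region and genotype, beside *Krtap31-1* as the close copy of *Krtap31-2*, with TATAAA in capitals.
Krtap8-1 (chr16:89487953-89488072, minus strand): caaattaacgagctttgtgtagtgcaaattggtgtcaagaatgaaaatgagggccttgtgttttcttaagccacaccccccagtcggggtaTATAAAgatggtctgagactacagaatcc
Krtap11-1 (chr16:89571184-89571303, minus strand): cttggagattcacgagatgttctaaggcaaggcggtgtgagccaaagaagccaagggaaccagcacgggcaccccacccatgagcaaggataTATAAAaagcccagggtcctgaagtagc
Krtap3-1 (chr11:99566631-99566750, minus strand): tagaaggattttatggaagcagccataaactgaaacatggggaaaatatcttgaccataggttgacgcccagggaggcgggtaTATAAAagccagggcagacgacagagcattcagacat
Krtap17-1 (chr11:99993995-99994114, minus strand): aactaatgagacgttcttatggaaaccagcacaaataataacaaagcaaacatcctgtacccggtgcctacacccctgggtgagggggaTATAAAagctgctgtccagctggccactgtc
Krtap20-2 (chr16:89205741-89205860, plus strand): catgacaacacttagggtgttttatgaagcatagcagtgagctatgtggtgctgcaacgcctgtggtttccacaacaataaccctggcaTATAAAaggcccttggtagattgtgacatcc
Krtap9-5 (chr11:99948304-99948423, plus strand): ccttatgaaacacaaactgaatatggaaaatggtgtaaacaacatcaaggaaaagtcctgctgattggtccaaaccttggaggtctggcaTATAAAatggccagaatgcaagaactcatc
Krtap31-1 (chr11:99907800-99907919, plus strand): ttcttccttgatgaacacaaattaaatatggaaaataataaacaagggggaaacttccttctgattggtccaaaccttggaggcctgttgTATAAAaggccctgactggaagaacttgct
Krtap31-2 (chr11:99936171-99936290, plus strand): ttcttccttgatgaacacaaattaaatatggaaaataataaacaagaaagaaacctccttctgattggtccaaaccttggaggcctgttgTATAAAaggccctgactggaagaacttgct
Each of these 8 windows holds 1 capitalised TATAAA, which begins 28 to 37 bases before the start site. *Krtap14* and *Krtap15*, also of high level but not printed, have no TATAAA between 40 and 20 bases before the start site. *Krtap31-1* and *Krtap31-2* differ at 4 of the 120 bases shown, and their levels in the cKO CLT libraries were 15.9 and 12.8 RPKM for *Krtap31-1* and 4.27 and 3.65 RPKM for *Krtap31-2*.

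In CLT the keratin-associated protein genes were high in both libraries labelled cKO, intermediate in Ctrl CLT 1 and near 0 in Ctrl CLT 2. The summed RPKM over the 52 members was 17907 in cKO CLT 1 and 17839 in cKO CLT 2, which was 4.62% and 4.50% of the summed RPKM of the whole table. The mean of the cKO CLT libraries was 17873 ± 47.6 (SD, n = 2) and that of the Ctrl CLT libraries 3147 ± 4442 (SD, n = 2), a ratio of 5.68. Against Ctrl CLT 1 alone the ratio was 2.84, and against Ctrl CLT 2 alone it was 3096. In reads, the members had 341071 and 328678 in the cKO CLT libraries, 123299 in Ctrl CLT 1 and 118 in Ctrl CLT 2. The sum was not tested, since with 2 libraries on each side the smallest two-sided p of an exact permutation test is 0.333.

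**Figure D1:**
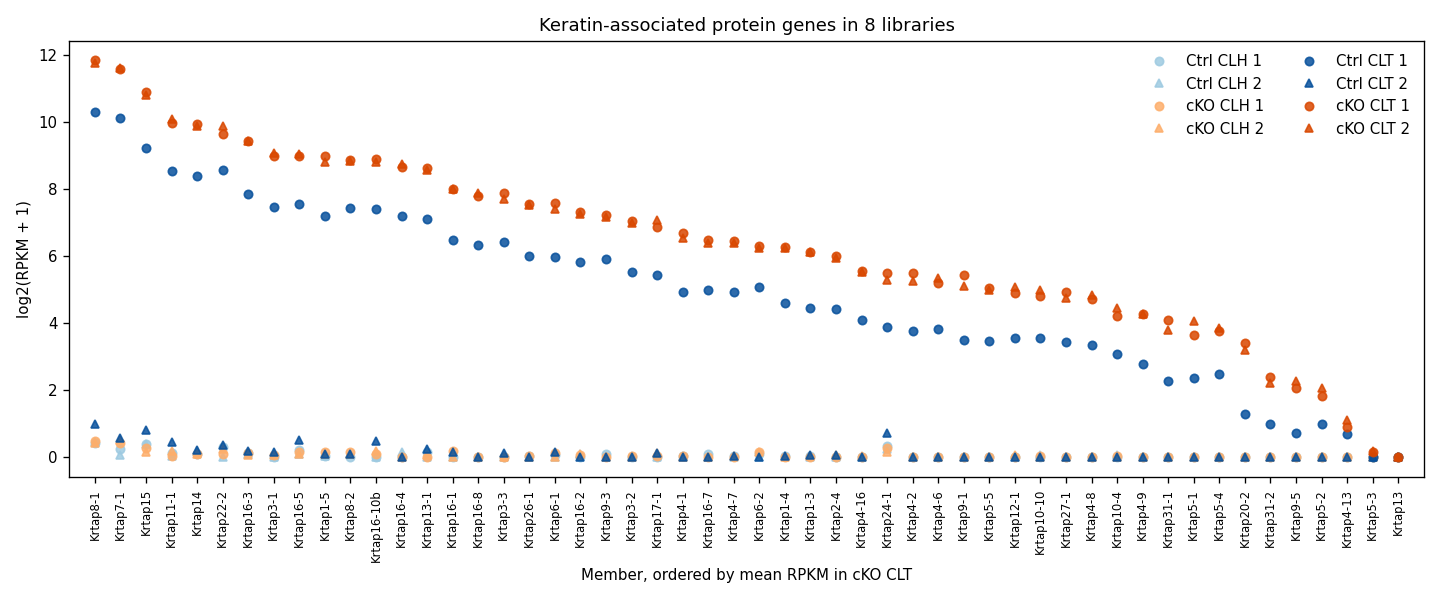
log2(RPKM + 1) of each of the 52 members (x axis, ordered by mean RPKM in cKO CLT) in each library; colour gives the group and shape the replicate. In 51 members both cKO CLT libraries lie above both Ctrl CLT libraries, Ctrl CLT 1 lies below them at a nearly even distance for most members, and Ctrl CLT 2 lies with the 4 CLH libraries near 0.

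Both cKO CLT libraries were above both Ctrl CLT libraries in 51 of 52 members, against 28.6% of all 23358 rows. The exception was *Krtap13*, which had no read in any of the 8 libraries; a library with no read allows up to 3, for counting error only. The members spanned a wide range of levels. Of the 52, 23 had a mean of at least 100 RPKM in cKO CLT, 22 had 10 to 100 and 7 had less than 10. The 4 members with the highest level, *Krtap8-1*, *Krtap7-1*, *Krtap15* and *Krtap11-1*, made up 53.3% of the family's summed RPKM in cKO CLT and 52.8% in Ctrl CLT 1, and 33 members made up less than 1% each.

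The coding classes were taken from the codons of the GENCODE coding sequences. A member with at least 30% cysteine codons was called ultra-high sulfur, one with at least 35% glycine and tyrosine codons high glycine-tyrosine, and all the rest were placed in the high sulfur class. The last class is therefore mixed. *Krtap7-1*, whose subfamily is usually counted as high glycine-tyrosine, fell into it with 29.9% glycine and tyrosine codons and 9.20% cysteine codons, and *Krtap15* did so with 24% and 4%.

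The 14 high glycine-tyrosine members, whose proteins are rich in glycine and tyrosine and are laid down early in the cortex, made up 44.4% of the family's summed RPKM in cKO CLT. Their sum was 7950 and 7937 RPKM in cKO CLT, 2875 in Ctrl CLT 1 and 2.57 in Ctrl CLT 2. *Krtap8-1* (chromosome 16, 89487374 to 89487952, mm10), the member with the highest level, had 3632 and 3480.3 RPKM in cKO CLT, 1254 in Ctrl CLT 1 and 0.974 in Ctrl CLT 2. *Krtap22-2* had 803 and 934 RPKM in cKO CLT, 376 in Ctrl CLT 1 and 0.297 in Ctrl CLT 2. Ctrl CLT 1 thus came nearer to the cKO CLT level in *Krtap22-2* than in *Krtap8-1*. *Krtap16-3* had 682 and 691 RPKM in cKO CLT, 227 in Ctrl CLT 1 and 0.132 in Ctrl CLT 2. *Krtap6-1* had 188 and 169 RPKM in cKO CLT, 61.7 in Ctrl CLT 1 and 0.127 in Ctrl CLT 2. The lowest member of the class was *Krtap20-2*, with 9.55 and 8.24 RPKM in cKO CLT, 1.47 in Ctrl CLT 1 and no read in Ctrl CLT 2.

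The 19 members of the high sulfur class made up 51.7% of the summed RPKM in cKO CLT, with sums of 9266 and 9205 RPKM in cKO CLT, 3184 in Ctrl CLT 1 and 3.02 in Ctrl CLT 2. *Krtap7-1* (chromosome 16, 89507703 to 89508323) had 3023 and 3138 RPKM in cKO CLT, 1102 in Ctrl CLT 1 and 0.484 in Ctrl CLT 2. *Krtap15* had 1909 and 1777 RPKM in cKO CLT, 589 in Ctrl CLT 1 and 0.765 in Ctrl CLT 2. These and *Krtap8-1* were the 3 members with the highest level in cKO CLT. *Krtap11-1* had 1003 and 1088 RPKM in cKO CLT, 372 in Ctrl CLT 1 and 0.373 in Ctrl CLT 2. *Krtap14* had 974 and 942 RPKM in cKO CLT, 334 in Ctrl CLT 1 and 0.176 in Ctrl CLT 2. Members on chromosome 11 were lower. *Krtap3-1*, the highest of them, had 509 and 531 RPKM in cKO CLT, 174 in Ctrl CLT 1 and 0.125 in Ctrl CLT 2. *Krtap1-5* had 499 and 448 RPKM in cKO CLT, 145 in Ctrl CLT 1 and 0.0723 in Ctrl CLT 2.

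The 19 ultra-high sulfur members, whose proteins are the richest in cysteine and which are known from the cuticle and from late steps of shaft hardening, made up 3.88% of the summed RPKM. Their sum was 691 and 698 RPKM in cKO CLT, 228 in Ctrl CLT 1 and 0.180 in Ctrl CLT 2. *Krtap17-1* was the highest, with 115 and 134 RPKM in cKO CLT, 42.2 in Ctrl CLT 1 and 0.0988 in Ctrl CLT 2. *Krtap4-1* had 101 and 91.8 RPKM in cKO CLT, 29.5 in Ctrl CLT 1 and no read in Ctrl CLT 2. The 5 *Krtap5* members on chromosome 7 were low, with *Krtap5-5* the highest at 31.9 and 30.8 RPKM in cKO CLT and 9.96 in Ctrl CLT 1. The lowest member with reads was *Krtap5-3*, at 0.108 and 0.133 RPKM in cKO CLT and no read in the other 6 libraries. Of 10 members that the study lists as hair genes on its arrays, 9 have a row of that name, and their mean RPKM in cKO CLT ran from 37.6 (*Krtap9-1*) to 958 (*Krtap14*).

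**Figure D2:**
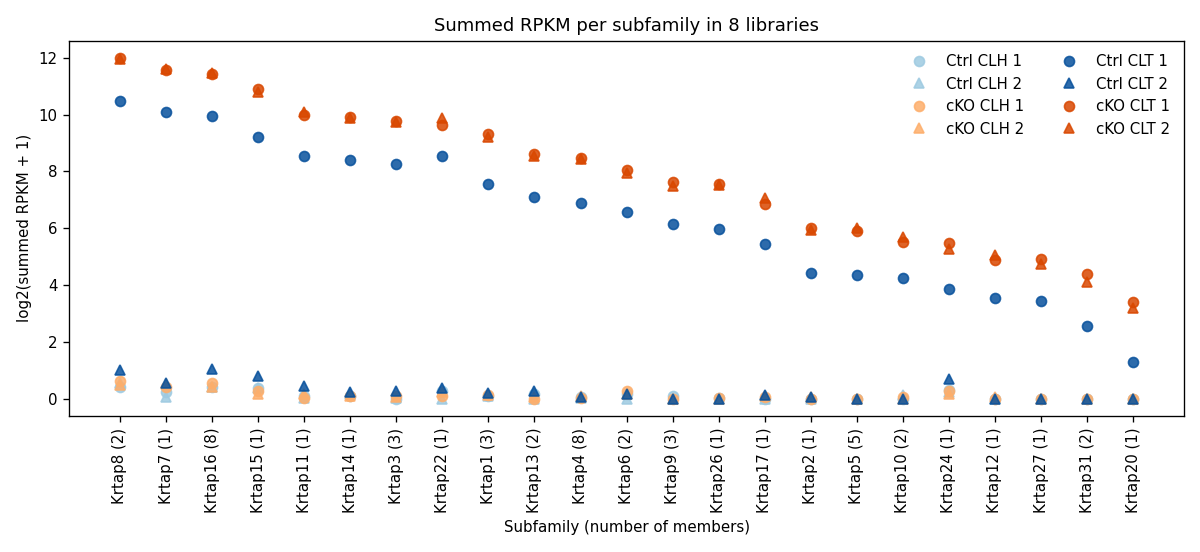
log2(summed RPKM + 1) of each of the 23 subfamilies (x axis, with the number of members) in each library; colour gives the group and shape the replicate. *Krtap8*, *Krtap7* and *Krtap16* have the highest sums in cKO CLT and *Krtap20* the lowest, and in every subfamily Ctrl CLT 1 lies below both cKO CLT libraries and above Ctrl CLT 2.

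By subfamily, *Krtap8* had the highest sum, 4100 and 3938 RPKM in cKO CLT, 1424 in Ctrl CLT 1 and 1.05 in Ctrl CLT 2, and *Krtap7* and *Krtap16* followed. The 8 *Krtap16* members together had 2772 and 2813 RPKM in cKO CLT, 979 in Ctrl CLT 1 and 1.09 in Ctrl CLT 2. By current RefSeq symbols, *Krtap16* would keep 1 of these members, at 682 and 691 RPKM, and the third sum would be that of 6 *Krtap19* members, at 2248 and 2261 RPKM in cKO CLT. The 8 *Krtap4* members reached only 358 and 343 RPKM in cKO CLT and 116 in Ctrl CLT 1. The *Krtap3* and *Krtap1* subfamilies lay between these, *Krtap3* at 873 and 864 RPKM and *Krtap1* at 644 and 592 RPKM in cKO CLT. The lowest sums in cKO CLT were those of *Krtap31* (20.2 and 16.5 RPKM) and *Krtap20* (9.55 and 8.24 RPKM).

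The members kept nearly the same proportions in Ctrl CLT 1 as in cKO CLT. Over the 51 members with reads in cKO CLT, the ratio of Ctrl CLT 1 to the mean of cKO CLT had a median of 0.347, with quartiles of 0.318 and 0.357. Among the 46 members with at least 30 reads in Ctrl CLT 1 it ran from 0.269 to 0.433, the highest being *Krtap22-2*. For the same members the ratio of cKO CLT 2 to cKO CLT 1 ran from 0.792 to 1.35 with a median of 0.979. The median ratio by class was 0.355 for high glycine-tyrosine, 0.344 for high sulfur and 0.339 for ultra-high sulfur members, and by chromosome it ran from 0.317 (chromosome 7) to 0.372 (chromosome 10). As a description over the 51 members, which share libraries, the log2 levels of Ctrl CLT 1 and cKO CLT had a Pearson correlation of 0.995 and a Spearman correlation of 0.997.

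**Figure D3:**
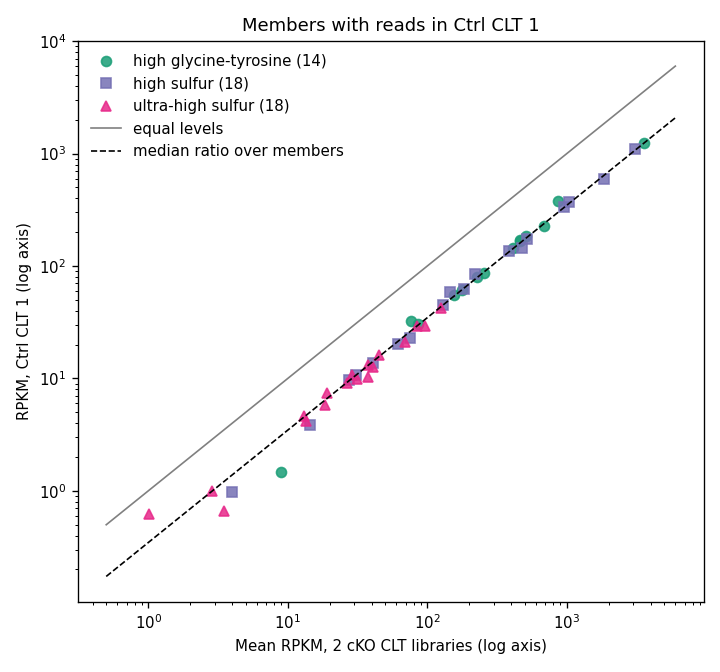
RPKM in Ctrl CLT 1 (y axis, log) against the mean RPKM of the 2 cKO CLT libraries (x axis, log) for the 50 members with reads in Ctrl CLT 1, with the coding class as colour and shape. The points follow the dashed line of the median ratio, 0.347, and all lie below the line of equal levels.

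Testing used log2(RPKM + 1) in limma across every gene that reached 1 RPKM in 2 or more libraries, and of the 52 members 49 were tested. *Krtap5-3*, *Krtap4-13* and *Krtap13* were too low. No member reached 1 RPKM in any CLH library or in Ctrl CLT 2, so each tested member needed cKO CLT to enter. Counts over the 49 therefore describe these and not the family. With both Ctrl CLT libraries, 0 of the 49 members passed an adjusted p (limma, Benjamini-Hochberg) of 0.05 in CLT, where 0.0777% of 14148 genes were called higher, and 9 had an unadjusted p under 0.05. The adjusted p ran from 0.0677 (*Krtap9-5*) to 0.252 (*Krtap22-2*). The median fitted log2 fold change over these members was 3.94, against -0.01 over all tested genes. For *Krtap8-1* it was 6.16 (SE 3.28, limma adjusted p = 0.244) and for *Krtap7-1*, the largest of all, 6.25 (SE 3.36, limma adjusted p = 0.247). The smallest were *Krtap5-2* at 1.45, *Krtap9-5* at 1.80 and *Krtap31-2* at 1.81, each on the log2(RPKM + 1) scale, which understates folds of low genes. The 9 members with an unadjusted p under 0.05 all had a mean of at most 37.6 RPKM in cKO CLT. The share of all tested genes with such a p was not counted.

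The spread between the Ctrl CLT libraries set these values. Without Ctrl CLT 1, 49 of 49 members were called higher (limma adjusted p 1.5e-06 to 0.000128), where 31.4% of tested genes were called higher, and their median was 6.43 on the log2 scale. Without Ctrl CLT 2, again 49 of 49 were called (limma adjusted p 0.000325 to 0.00341), where 29.1% of tested genes were called higher, with a median of 1.49. In both of these fits 1 Ctrl library stands alone and is assumed to vary like the cKO libraries. *Krtap8-1*, for example, had a log2 fold change of 10.81 (SE 0.10) without Ctrl CLT 1 and of 1.50 (SE 0.13) without Ctrl CLT 2. With all 8 libraries in 1 fit, whose spread is shared with the CLH groups, 20 of 49 members were called higher in CLT, where 23.7% of tested genes were. Fitted on the subfamily sums in place of the members, 0 of 23 subfamilies passed (limma), 3 had an unadjusted p under 0.05, and 0.0921% of all rows tested were called higher. All 23 subfamilies were called higher without Ctrl CLT 1, where 31.3% of rows were, and without Ctrl CLT 2, where 29% of rows were. With the replicate number as a block, 21 of 49 members were called higher in CLT, where 6.28% of tested genes were, and 13 of 23 subfamilies, where 7.3% of rows were. Whether a number marks a litter is not stated.

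**Figure D4:**
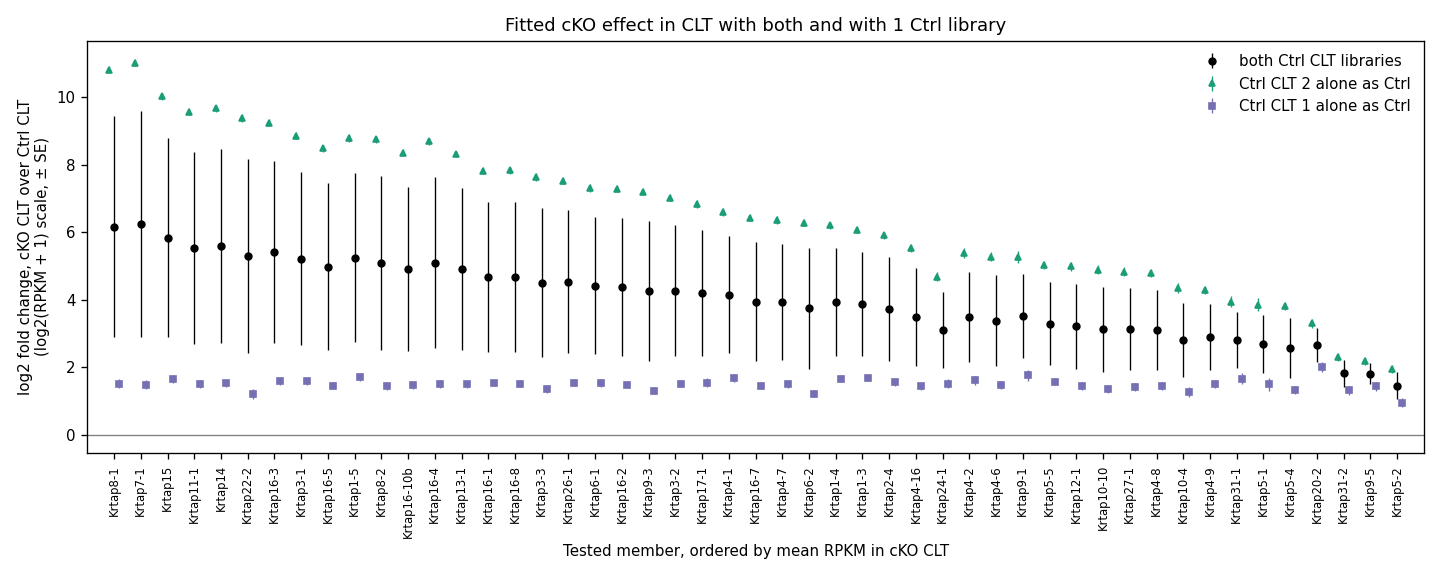
Fitted log2 fold change of cKO CLT over Ctrl CLT (y axis, log2(RPKM + 1) scale, bars are ± SE) for the 49 tested members, with both Ctrl CLT libraries (black), with Ctrl CLT 2 alone (green) and with Ctrl CLT 1 alone (purple). With Ctrl CLT 1 alone the median is 1.49, with Ctrl CLT 2 alone it is 6.43 and falls with the level, and with both it is 3.94 with the widest bars.

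In CLH the members were near 0 in both genotypes. Summed over all members, the Ctrl CLH libraries had 2.33 and 1.76 RPKM, and the cKO CLH libraries had 2.53 and 2.42 RPKM, from 38 to 64 reads a library and at most 14 reads for any member. The highest RPKM of any member in any CLH library was 0.436 (*Krtap7-1* in cKO CLH 2). Of the 52 members, 19 had no read in any of the 4 CLH libraries. Both cKO CLH libraries were above both Ctrl CLH libraries in 6 of 52 members, against 15.3% of all rows, and below them in 2. The test in CLH called 0 of 49 members (limma), 3 had an unadjusted p under 0.05, and 0% of 14148 genes were called higher. With so few reads, the members' levels in CLH could not be ranked between the genotypes. *Krtap24-1* took 40 of the 216 reads of the family in CLH, more than any other member, and had 27 reads in Ctrl CLT 2, where its RPKM of 0.646 was exceeded only by *Krtap8-1* and *Krtap15*. In cKO CLT it was a middling member, at 44.1 and 38.0 RPKM. Only 3 members had more than 3 reads in both cKO CLH libraries, and their ratios of cKO CLT to cKO CLH were 230.9 for *Krtap24-1*, 8003 for *Krtap7-1* and 9359 for *Krtap8-1*.

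Within cKO mice, the members were far higher in CLT than in CLH. The ratio of the summed RPKM was 7222, and 49 of 49 tested members were called higher in CLT (limma adjusted p 4.34e-11 to 1.01e-06), where 28.9% of tested genes were called higher. Each tested member needed cKO CLT to pass the filter, so the filter favoured this count, which describes the tested members only. The median fitted log2 fold change was 6.43, against -0.18 over all tested genes. The largest were *Krtap8-1* at 11.33 (SE 0.08) and *Krtap7-1* at 11.12 (SE 0.08), followed by *Krtap15*, *Krtap11-1*, *Krtap14*, *Krtap22-2*, *Krtap16-3*, *Krtap3-1*, *Krtap16-5*, *Krtap1-5*, *Krtap8-2* and *Krtap16-10b*, at 8.70 to 10.63. In cKO CLH, 46 members were at or under the floor of 3 reads a library. With every mean under that floor set to it, the median log2 ratio over the 51 members with reads in cKO CLT was 9.65.

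Within Ctrl mice the picture depended on the library. The test of CLT against CLH called 0 of 49 members (limma), 0 had an unadjusted p under 0.05, and 0.00707% of tested genes were called higher, and the median fitted fold over the members was 2.47 on the log2 scale. Without Ctrl CLT 2, 49 of 49 were called higher, where 18.4% of tested genes were, and without Ctrl CLT 1, 1 was, where 1.91% of tested genes were. The summed RPKM of Ctrl CLT 2 was still 2.82 times the mean of the Ctrl CLH libraries, with 118 reads against 63 and 38. The comparisons above share the CLT and CLH libraries with each other.

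The interaction test over all 8 libraries (limma) called a larger cKO effect in CLT than in CLH for 3 of 49 members, 6.12%, which is below the 8.05% of all tested genes called larger in CLT. These were *Krtap20-2* (difference of log2 fold changes 2.65, SE 0.56, limma adjusted p = 0.0287), *Krtap31-2* (1.81, SE 0.44, limma adjusted p = 0.0404) and *Krtap9-5* (1.80, SE 0.35, limma adjusted p = 0.0241). All were low members, with no read in any CLH library or in Ctrl CLT 2, so that their difference equals their fold in CLT, where none of them passed (limma adjusted p 0.0677 to 0.0779). *Krtap9-5* had 3.21 and 3.81 RPKM in cKO CLT and 0.666 in Ctrl CLT 1. Over the 49 members the median difference was 3.99 and the adjusted p reached 0.293 (*Krtap7-1*). All 49 were called without Ctrl CLT 1, where 28.5% of tested genes were called larger in CLT, and all 49 without Ctrl CLT 2, where 26.6% were. Leaving out any other library gave 0, and with the replicate number as a block 2 were called, where 3.63% of tested genes were.

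The members lie in 4 clusters. The 23 members on chromosome 16 (88610709 to 89571183 between the first start and the last end) made up 86.8% of the family's summed RPKM in cKO CLT. The 21 on chromosome 11 (99550132 to 99993994), beside the type I keratin genes, made up 12.5%. The remaining clusters were small in level, with 3 members on chromosome 10 at 0.440% and 5 on chromosome 7 at 0.341%. Among the members lie 25 rows with other names, 1 of which RefSeq calls a keratin-associated protein gene. In 20 of the 25, both cKO CLT libraries were above both Ctrl CLT libraries, against 28.6% of all rows. The ratio of Ctrl CLT 1 to cKO CLT in these 20 had a median of 0.331. The highest was *Gm10229*, with 788 and 727 RPKM in cKO CLT, 284 in Ctrl CLT 1 and 0.0660 in Ctrl CLT 2.

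Close copies make some single values uncertain. The coding sequences of *Krtap3-2* and *Krtap3-3* were 100% identical, those of *Krtap31-1* and *Krtap31-2* 98.9%, those of *Krtap16-8* and *Krtap6-1* 97.9% and those of *Krtap4-1* and *Krtap4-2* 95.7%. How reads that fit several genes were counted is not given in the sources used here, so levels within these pairs may have been split. Of the 52 members, 14 shared no stretch of 50 bases, the length of a read, with a transcript of any other annotated gene on either strand. The median share of stretches found in another gene, member or not, was 8.80%. Leaving out the 8 members of the close pairs, the ratio of summed RPKM was 5.68 as before. For 8 members RefSeq has another symbol at the same position, such as *Krtap19-2* for *Krtap16-1* and *Krtap6-5* for *Krtap16-8*, so that subfamilies by name are not those of the current symbols.

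Other hair genes differed between the same libraries. The list of 15 hair shaft keratins holds the filaments that the keratin-associated proteins embed. Both cKO CLT libraries were above both Ctrl CLT libraries in all 15, against 28.6% of all rows. Their summed RPKM was 3254 and 3547 in cKO CLT, 1157 in Ctrl CLT 1 and 1.96 in Ctrl CLT 2, and 0 of 15 were called (limma, with both Ctrl libraries; 3 had an unadjusted p under 0.05). *Krt35* had 419 and 477 RPKM in cKO CLT, 144 in Ctrl CLT 1 and 0.175 in Ctrl CLT 2. The 5 other hair shaft proteins in the list had sums of 2762 and 2958 RPKM in cKO CLT, 1002 in Ctrl CLT 1 and 2.11 in Ctrl CLT 2. Their highest member, *S100a3*, a calcium-binding protein of the hair cuticle, had 1954 and 2102 RPKM in cKO CLT, 747 in Ctrl CLT 1 and 1.11 in Ctrl CLT 2. The 9 inner root sheath and companion layer genes in the table had sums of 11027 and 12015 RPKM in cKO CLT, 3707 in Ctrl CLT 1 and 17.4 in Ctrl CLT 2. Of 12 hair shaft regulators, 11 had a fitted fold above 0 in CLT and 0 were called (limma, 8 had an unadjusted p under 0.05). The interaction called 3 of the 12 larger in CLT, where 8.05% of tested genes were. In some regulators the Ctrl CLT libraries lay close together. *Foxq1* had 18.8 and 17.9 RPKM in cKO CLT and 7.58 and 7.35 in Ctrl CLT. *Vdr* had 73.5 and 76.2 RPKM in cKO CLT and 37.9 and 32.8 in Ctrl CLT. *Hoxc13*, a transcription factor known to act on hair keratin and keratin-associated protein genes, had 65.4 and 61.8 RPKM in cKO CLT, 21.4 in Ctrl CLT 1 and 0.0309 in Ctrl CLT 2. *Foxn1*, a transcription factor needed for a normal hair shaft, had 40.6 and 42.6 RPKM in cKO CLT, 11.01 in Ctrl CLT 1 and 0.165 in Ctrl CLT 2. *Dlx3* and *Msx2*, which act in teeth and in hair, had levels of 120.5 to 140.3 and of 70.4 to 89.9 RPKM over the 4 CLT libraries.

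**Figure D5:**
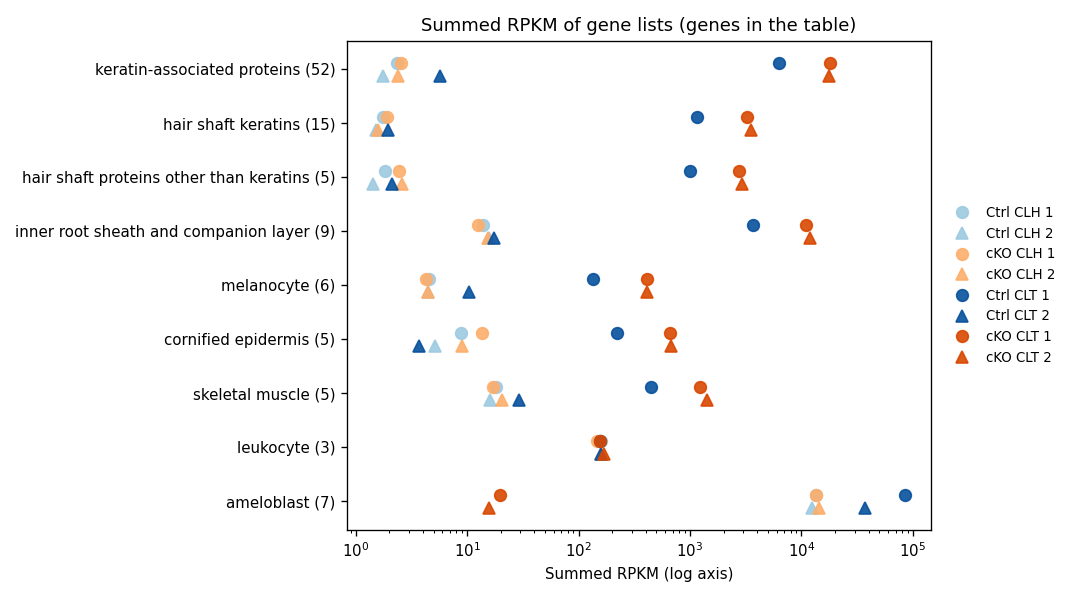
Summed RPKM (x axis, log) of the keratin-associated protein genes and of 8 gene lists, with the number of genes in the table, in each library; colour gives the group and shape the replicate. In the hair, melanocyte, cornified epidermis and skeletal muscle lists Ctrl CLT 1 lies at 0.322 to 0.350 of the cKO CLT mean, in the leukocyte list the libraries lie between 146 and 168, and the ameloblast list is lowest in cKO CLT.

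Markers of cell types that are neither hair nor tooth epithelium differed between these libraries as well. In all 5 skeletal muscle markers both cKO CLT libraries were above both Ctrl CLT libraries, against 28.6% of all rows. The muscle sums were 1238 and 1428 RPKM in cKO CLT, 448 in Ctrl CLT 1, 29.0 in Ctrl CLT 2 and 16.0 to 20.6 in CLH. *Acta1*, the actin of skeletal muscle, had 551 and 659 RPKM in cKO CLT, 190 in Ctrl CLT 1 and 10.3 in Ctrl CLT 2. All 6 melanocyte markers were likewise above, with sums of 414 and 414 RPKM in cKO CLT, 134 in Ctrl CLT 1, 10.3 in Ctrl CLT 2 and 4.26 to 4.58 in CLH. The 5 cornified epidermis markers in the table had sums of 660 and 671 RPKM in cKO CLT, 219 in Ctrl CLT 1, 3.69 in Ctrl CLT 2 and 5.12 to 13.5 in CLH. The median ratio of Ctrl CLT 1 to the mean of cKO CLT, over the genes of a list, was 0.323 for skeletal muscle and 0.312 for melanocyte markers. It was 0.314 for cornified epidermis and 0.334 for hair shaft keratins, beside the members' median of 0.347. Other lists had higher medians, with 0.377 for hair shaft regulators and 0.707 for 4 basal epithelium markers. All 7 ameloblast markers and all 5 odontoblast and bone markers were lower in both cKO CLT libraries than in both Ctrl CLT libraries. The share of all rows lower in this way was not counted. With both Ctrl CLT libraries, limma called 7 of 7 and 3 of 5 lower, where 237 of 14148 tested genes were called lower. The odontoblast and bone sums were 377 and 472 RPKM in cKO CLT, 2138 and 2469 in Ctrl CLT and 2075 to 3040 in CLH. The 3 leukocyte markers had sums of 155 to 168 RPKM in CLT, and the 3 endothelial markers 37.4 to 52.1. These sums join markers that went opposite ways. Both cKO CLT libraries were above both Ctrl CLT libraries in 1 leukocyte marker and below them in 2. Among the endothelial markers they were above in 1 and below in 1. The part of the tissue make-up of each library in the values of the keratin-associated protein genes was not tested.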

How the data were processed

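RNA-seq libraries of CLH and CLT tissues from *Med1* cKO and Ctrl mice were grouped by their labels, 2 to a group. The authors trimmed reads with Trim Galore 0.4.3.1, aligned them to mm10 with STAR 2.6.0b-1 and counted them with featureCounts 1.6.3, and their methods name DESeq2. The authors deposited RPKM values for 23358 genes in 8 columns, with a length per gene. The annotation, the strand setting and the handling of reads that fit several genes are not given in the sources used here. Multiplied by length, 100% of the values were whole multiples of 1 step per library (within 0.05 reads), which gave the reads behind each value. The allowance of 3 reads for a value of 0 covers counting error only. 0 sample columns were left unused.

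log2(RPKM + 1) was tested with limma 3.58.1 (variance trend) in R 4.3.3, over genes with RPKM of at least 1 in at least 2 libraries, with Benjamini-Hochberg adjustment over all 14148 genes tested and a threshold of 0.05. Each comparison used its own 4 libraries and the interaction all 8. For subfamilies, the members' RPKM were summed and replaced the members in the table. Coding classes, strand and identity came from GENCODE M21, and symbols and promoters from RefSeq. The tests were tried on simulated data. The members, lists and tests were chosen with earlier results of these data known. Genes were named by level, subfamily, size and direction of change, calls, the study's array list and marker lists. *Krtap24-1* in CLH, *Gm10229*, *Dlx3* and the other list genes given with values were picked once their values were known. The alternatives were other pseudocounts (0.1 and 0.5), scalings, filters and variance settings, 1 fit over all libraries, a replicate block, voom on the recovered reads and each library left out in turn. The microarrays and ChIP-seq were not used here.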

Additional observations from a re-analysis of the deposited data

Results flagged for a closer look

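The interaction test over all 8 libraries (limma, adjusted over all genes) called a larger cKO effect in CLT than in CLH in 3 of 49 members, 6.12%, against 8.05% of all tested genes called larger in CLT. The difference of log2 fold changes was 2.65 for *Krtap20-2*, 1.81 for *Krtap31-2* and 1.80 for *Krtap9-5*, and in each both cKO CLT libraries were above both Ctrl CLT libraries while all 4 CLH libraries and Ctrl CLT 2 had no read, so that the difference equals the fold in CLT, where none of the 3 passed. No other of the 49 tested members passed, although larger differences were fitted for members of higher level, whose Ctrl CLT libraries lay further apart. With a pseudocount of 0.1, with voom on the recovered reads, or without any 1 of the CLH or cKO CLT libraries, none of the 3 passed. The cause of the gap between Ctrl CLT 1 and Ctrl CLT 2 was not tested.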

How the results depend on the processing

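In CLT, the count of members called was 0 in the 2-group fit with both Ctrl libraries and no replicate block, where 0.0777% of tested genes were called higher. It was 20 with all 8 libraries in 1 fit, 49 in that fit without Ctrl CLT 1 and 49 without Ctrl CLT 2 (both added after the data had been seen), and 0 to 49 over the libraries left out in turn, with 49 for either Ctrl CLT library and 0 for either cKO CLT library. For subfamily sums the count of calls was 0 of 23 in the 2-group fit. It was 5 of 23 with all 8 libraries in 1 fit, where 3342 of 14122 rows were called higher. The median fitted log2 fold over the subfamilies was 4.63 with both Ctrl libraries. It was 7.83 when Ctrl CLT 2 stood alone and 1.51 when Ctrl CLT 1 did. The interaction called 3 members, 0 with a pseudocount of 0.1, 0 with voom and 0 to 49 over the libraries left out. CLT against CLH called 0 members in Ctrl, where 0.00707% of tested genes were called higher. The median log2 fold there was 2.47, against 0 without Ctrl CLT 1 and 4.94 without Ctrl CLT 2. In cKO it called 49 of 49, where 28.9% of tested genes were called higher. Alternatives with both libraries of each group called every member they tested, 47 with the filter on the mean, 51 with no filter and 49 otherwise. In CLH, 0 members were called under every alternative run. The ratio of summed RPKM, with both Ctrl CLT libraries, was between 5.57 and 5.94 by recovered reads, under median-of-ratios scaling and without the close copies, while with Ctrl CLT 1 alone it was 2.84 and with Ctrl CLT 2 alone 3096. The leave-out of members by protein identity was not run as planned, and coding sequence identity was used instead. Counts of calls differed from the 2-group fit in the fit of all libraries because the CLH libraries enter its estimate of the spread.

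The labels give the groups the same replicate numbers, without saying what a number marks. The study used 2 litters, and which number came from which litter is not stated. Over 14148 genes, same-numbered deviations from the group means correlated at -0.19 between Ctrl CLT and cKO CLT and 0.07 in CLH. They correlated at 0.31 between the cKO groups and 0.20 between the Ctrl groups. The correlation was -0.14 between Ctrl CLH and cKO CLT and -0.11 between cKO CLH and Ctrl CLT. The numbers were not taken to mark pairs across genotypes. Whether a number marks the same mice in CLH and CLT was not tested. With the replicate number as a block, 21 members (6.28% of all tested genes called higher) and 13 subfamily sums (7.3% of rows) were called in CLT. The interaction with that block called 2 members (3.63% of genes). CLT against CLH in cKO called 49, where 4485 genes were called higher, and both remaining comparisons called 0. With the numbers crossed between cKO CLT and Ctrl CLT, 0 members were called in CLT.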
